A study of Mus musculus with 24 samples.

Results

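Major histocompatibility complex (MHC) class I genes, and the genes whose products fill class I molecules with peptide, were followed in retinal RNA of 8 inbred mouse strains. The 10 genes H2-K1, H2-D1, H2-T23, H2-Q4, H2-Q6, H2-Q7, B2m, Tap1, Tap2 and Tapbp were chosen by symbol, and all 10 were found among the 28,802 genes of the table. Of these, 9 lie on chromosome 17 in the H2 complex, between Tapbp at chr17:33915899-33929293 and H2-T23 at chr17:36029773-36032856 (GRCm38), and B2m lies at chr2:122147686-122153084. All mice were wild type and at postnatal day 28. Each strain gave 3 libraries of total RNA depleted of ribosomal RNA, 24 in all. The classical laboratory strains were 129S1/Svlmj, A/J, C57BL/6J, NOD/ShiLtJ and NZO/HlLtJ, and the wild-derived strains were CAST/EiJ, PWK/PhJ and WSB/EiJ. The study relates gene expression in the retina of these strains to contrast vision and refraction, and the comparison made here asks how the class I genes differ between the strains.

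Class I molecules display peptides from proteins made inside the cell to CD8 T cells and to receptors of natural killer cells. A heavy chain, such as the product of H2-K1 or H2-D1, pairs with the light chain beta-2 microglobulin, and receives a peptide that the TAP transporter has carried into the endoplasmic reticulum. The neural retina is known for low class I levels and for being shielded from immune attack. H2 genes are among the most variable genes of the mouse, and reads were aligned to the genome of C57BL/6J, so a strain whose haplotype lies far from that reference may lose reads or have them counted under a related H2 gene. C57BL/6J and 129S1/Svlmj carry closely related haplotypes of the b type. The other strains carry haplotypes that differ as a whole, which does not mean that each H2 gene in them differs. Some haplotypes, that of A/J among them, hold the class I gene H2-L, which the reference genome lacks.

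Levels are given in cpm, the reads of a gene scaled to a common total of reads for each library. The libraries held 57,615,000 to 78,153,000 reads (median 68,948,750), as recovered from the size of 1 read, and 3 reads correspond to 0.0384 to 0.0521 cpm. That level covers counting error only, and no fold is given for values below it. Each ± is the SD of the 3 libraries of a strain. The p-values and q-values rest on the spread between libraries of the same strain. For each gene this spread was pooled over all strains in a fit and moderated across genes. They do not measure the spread of a single strain. The study's methods describe the libraries as biological replicates. The RNA is from whole tissue, so fewer cells of a type and less RNA per cell cannot be told apart. The rod photoreceptor genes Gnat1 (transducin) and Sag (arrestin) were abundant in every library, at no less than 1697 and 862 cpm. Lens crystallins and other lens transcripts, summed over 6 genes, reached 1612 cpm in 129S1/Svlmj replicate 2, 1812 cpm in NOD/ShiLtJ replicate 2 and 212 cpm in C57BL/6J replicate 2, against 4.86 to 84.5 cpm in the other libraries.

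All 10 genes were detected in retina at low levels. Per kilobase of the longest coding transcript, B2m was highest of the 10 in 4 strains, Tapbp in 3 (A/J, NZO/HlLtJ and CAST/EiJ) and H2-D1 in WSB/EiJ. In C57BL/6J, B2m stood at 5.69, Tapbp at 3.77, H2-D1 at 3.38 and H2-K1 at 2.38 cpm per kilobase. In WSB/EiJ, H2-D1 at 5.67 and H2-K1 at 4.05 cpm per kilobase lay above Tapbp at 3.03 and B2m at 2.93. H2-T23 at 0.498, H2-Q4 at 0.429, Tap2 at 0.424, H2-Q7 at 0.241, Tap1 at 0.216 and H2-Q6 at 0.106 cpm per kilobase followed in C57BL/6J. H2-Q6 was the lowest in 6 strains, Tap1 in 129S1/Svlmj and H2-Q7 in PWK/PhJ. A mean of at least 0.5 cpm over the 24 libraries was asked of a gene before testing, and 6 of the 10 met it: H2-K1, H2-D1, H2-Q4, B2m, Tap2 and Tapbp. The other 4 (H2-T23, H2-Q6, H2-Q7 and Tap1) were tested in a fit with no filter, and Tap1 also met the filter in the fit of the classical strains.

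Differences between the 8 strains were tested for each gene with limma's moderated F-test on log2(cpm + 1), with a q-value under 0.01 over all 16,400 genes tested. Of the 6 tested members, 6 were called, beside 91.7% of all genes, so the calls themselves say little about these genes. The same share stands beside the F-test counts of the gene lists given further below. The q-value is lenient here, since the share of unchanged genes was estimated as small, and an unadjusted p up to 0.184 was called. With Benjamini-Hochberg adjusted p-values in its place, 70.6% of genes were called, and 6 of 6 members. In the fit with no filter, 10 of 10 members were called beside 64.8% of genes. Among the 5 classical strains alone, 6 of 7 members tested were called beside 46.0% of genes, and Tap1 was not (q = 0.0112). By size, the median range between the highest and the lowest strain was 0.89 on the log2 scale over the 6 tested members. It was 0.43 over all genes tested, but 0.80 over 6 tested class I-like genes and 0.73 over 20 tested interferon-stimulated genes. Markers of pigment epithelium (1.44) and of blood cells (1.49) had wider ranges. A wide range was thus not particular to the members, and these values are a description with no test. H2-K1 ranked 463 and H2-D1 ranked 576 of 16,400 genes by F. Over the 28 pairs of strains, 95 of 168 comparisons of the 6 members were called, beside 29.8% of such comparisons over all genes.

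H2-K1, at chr17:33996017-34000348, encodes a classical heavy chain that presents peptides to CD8 T cells. It was highest in WSB/EiJ and lowest in NZO/HlLtJ. H2-K1 stood at 6.23, 7.38 and 6.04 cpm in WSB/EiJ (mean 6.55 ± 0.727) and at 3.75, 4.18 and 3.60 cpm in C57BL/6J (mean 3.85 ± 0.302). The middle of the order held 2.86, 3.47 and 3.56 cpm in 129S1/Svlmj (mean 3.30 ± 0.382), 3.32, 3.41 and 3.02 cpm in PWK/PhJ (mean 3.25 ± 0.203) and 2.95, 2.92 and 3.08 cpm in A/J (mean 2.99 ± 0.0839). Lower still were 2.27, 2.20 and 2.69 cpm in NOD/ShiLtJ (mean 2.39 ± 0.265), 1.204, 1.32 and 1.11 cpm in CAST/EiJ (mean 1.21 ± 0.104) and 0.849, 0.762 and 0.856 cpm in NZO/HlLtJ (mean 0.822 ± 0.0525). CAST/EiJ came next to the bottom with no overlap with any other strain, while 129S1/Svlmj and PWK/PhJ overlapped each other and 129S1/Svlmj spanned the values of A/J. All 3 libraries of WSB/EiJ lay above every other library, and all 3 of NZO/HlLtJ lay below every other library. The means of these strains lay 7.97-fold apart (F-test q = 2.61e-16). WSB/EiJ was higher than each of the other 7 strains and exceeded C57BL/6J, the next in the order, by 0.64 on the log2 scale (SE 0.078, q = 3.50e-07). NZO/HlLtJ was lower than each of the other 7 strains, though its difference from CAST/EiJ (q = 0.00335) was not called without CAST/EiJ replicate 2 (q = 0.0167) or without NZO/HlLtJ replicate 2 (q = 0.0147). From C57BL/6J down to A/J, no neighbours in the order differed by the test. The next step, from A/J to NOD/ShiLtJ, was called (q = 0.00944). That call was lost in most fits without 1 library, such as without NOD/ShiLtJ replicate 2 (q = 0.0395).

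H2-D1, at chr17:35262730-35267500, encodes the other classical heavy chain that C57BL/6J expresses, and its levels set CAST/EiJ apart. The gene stood at 11.2, 12.1 and 12.5 cpm in WSB/EiJ (mean 11.9 ± 0.685). Then came 6.97, 7.93 and 6.79 cpm in 129S1/Svlmj (mean 7.23 ± 0.611), 5.73, 8.17 and 7.40 cpm in C57BL/6J (mean 7.10 ± 1.25) and 6.54, 6.10 and 7.83 cpm in NOD/ShiLtJ (mean 6.83 ± 0.900). Below these were 4.43, 4.45 and 4.68 cpm in PWK/PhJ (mean 4.52 ± 0.137), 4.12, 4.40 and 4.89 cpm in NZO/HlLtJ (mean 4.47 ± 0.389) and 4.24, 3.88 and 4.06 cpm in A/J (mean 4.06 ± 0.180). The lowest values were 1.31, 1.59 and 1.28 cpm in CAST/EiJ (mean 1.39 ± 0.171). The libraries thus fell into 4 levels that did not overlap: WSB/EiJ at the top, then 129S1/Svlmj, C57BL/6J and NOD/ShiLtJ, then PWK/PhJ, NZO/HlLtJ and A/J, and CAST/EiJ at the bottom. Within each level the strains overlapped or lay close, and no pair within a level was called. Every pair across levels was called, in the fit of all libraries and in each of the 24 fits without 1 library. The means of WSB/EiJ and CAST/EiJ lay 8.55-fold apart, and the F-test gave q = 1.63e-15. WSB/EiJ exceeded 129S1/Svlmj by 0.65 on the log2 scale (SE 0.096, q = 4.12e-06), and A/J exceeded CAST/EiJ by 1.08 on the log2 scale (SE 0.096, q = 1.90e-09).

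The balance of the heavy chains differed between strains. The ratio of H2-D1 to H2-K1, in cpm, was 5.43 in NZO/HlLtJ and 2.86 in NOD/ShiLtJ, against 1.85 in C57BL/6J and 1.15 in CAST/EiJ. NZO/HlLtJ was thus lowest in H2-K1 but level with PWK/PhJ and A/J in H2-D1, while CAST/EiJ was low in both. Because reads may pass between near-identical H2 genes, the 6 class I heavy chain genes were also summed in each library, as a description. The sum was 19.8, 22.3 and 21.3 cpm in WSB/EiJ and 3.47, 4.13 and 3.45 cpm in CAST/EiJ, and the means lay 5.74-fold apart. Means of the other strains were 13.0 cpm in C57BL/6J, 12.2 in 129S1/Svlmj, 10.4 in NOD/ShiLtJ, 9.47 in PWK/PhJ, 8.66 in A/J and 6.25 in NZO/HlLtJ. The sum over all 18 class I genes of the H2-K, H2-D1, H2-Q, H2-T and H2-M series in the table kept WSB/EiJ highest at 25.3 ± 1.198 cpm and CAST/EiJ lowest at 5.52 ± 0.585 cpm, 4.59-fold apart.

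**Figure D1:**
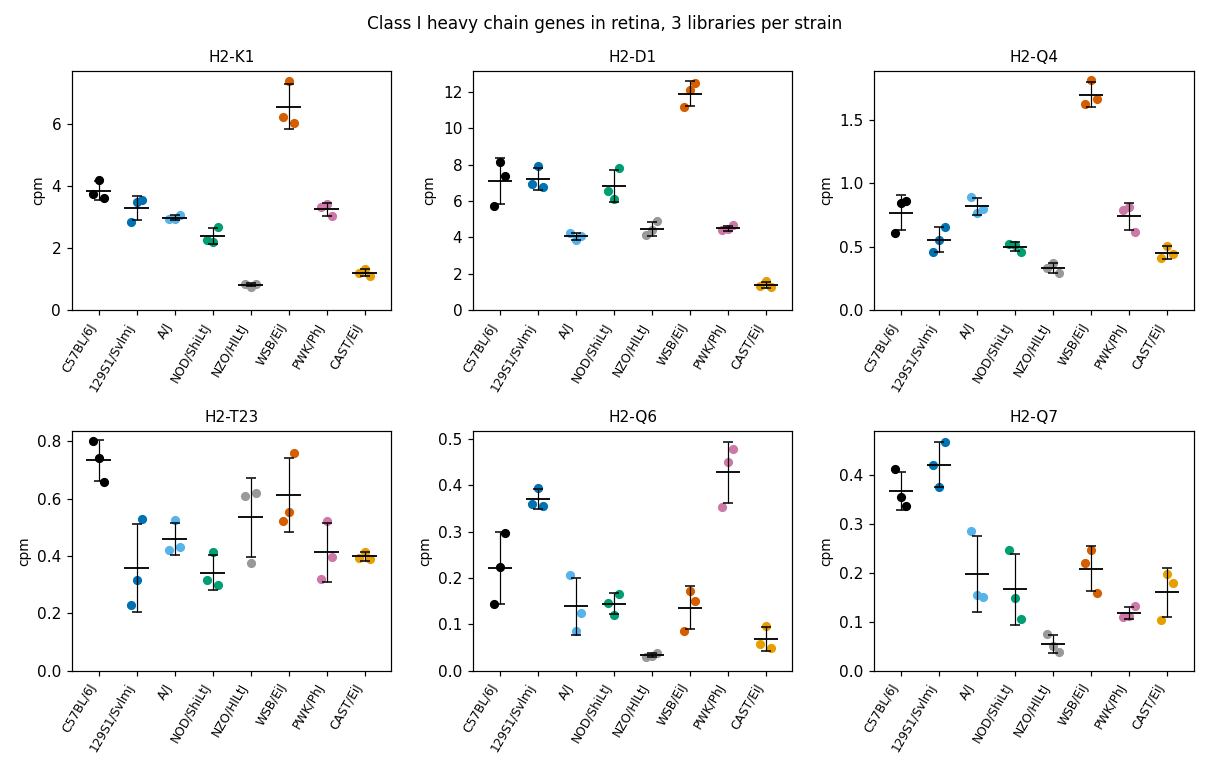
Levels of 6 class I heavy chain genes (vertical axis, cpm) by strain (horizontal axis); each point is 1 library, the line is the mean and the bars are the SD of 3 libraries. WSB/EiJ lies above all other strains for H2-K1, H2-D1 and H2-Q4, while H2-Q6 is highest in PWK/PhJ and H2-T23 in C57BL/6J.

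H2-Q4, at chr17:35379617-35385291, is a nonclassical class I gene of the Q region. It was again highest in WSB/EiJ, at 1.63, 1.81 and 1.66 cpm (mean 1.70 ± 0.0983). The strains in the middle were 0.893, 0.766 and 0.798 cpm in A/J (mean 0.819 ± 0.0657), 0.607, 0.845 and 0.858 cpm in C57BL/6J (mean 0.770 ± 0.141) and 0.788, 0.815 and 0.614 cpm in PWK/PhJ (mean 0.739 ± 0.109). At the lower end stood 0.457, 0.551 and 0.655 cpm in 129S1/Svlmj (mean 0.554 ± 0.0987), 0.525, 0.517 and 0.460 cpm in NOD/ShiLtJ (mean 0.501 ± 0.0353) and 0.409, 0.509 and 0.441 cpm in CAST/EiJ (mean 0.453 ± 0.0509), with NZO/HlLtJ lowest at 0.333, 0.374 and 0.295 cpm (mean 0.334 ± 0.0396 cpm). All WSB/EiJ libraries lay above every other library and all NZO/HlLtJ libraries lay below every other library, and the strains between them overlapped along the order. The F-test gave q = 6.90e-12. WSB/EiJ was higher than each of the other 7 strains, also in each of the 24 fits without 1 library, and exceeded A/J, the next in the order, by 0.57 on the log2 scale (SE 0.065, q = 1.22e-07). No other neighbours in the order differed by the test. The size of log2 differences at these levels depends on the pseudocount: with 0.1 in place of 1, WSB/EiJ minus C57BL/6J for H2-Q4 was 1.06 in place of 0.61. Across the 24 libraries H2-Q4 rose and fell with H2-K1 (Pearson r = 0.87) more than with H2-D1 (r = 0.60). H2-K1 and H2-D1 had r = 0.74. After the strain means were taken out, these values were 0.43, 0.31 and 0.42; the libraries of a strain are not independent of each other in the former values, and all are given as a description.

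The remaining nonclassical genes followed other orders. H2-Q6 and H2-Q7 encode Qa-2 antigens, and their mean levels stayed at or below 0.428 cpm in every strain. H2-Q6 was highest in PWK/PhJ at 0.353 to 0.479 cpm and in 129S1/Svlmj at 0.356 to 0.395 cpm, and lowest in NZO/HlLtJ at 0.0297 to 0.0374 cpm, which is about 2 reads and below the level of 3 reads. H2-Q7 was highest in 129S1/Svlmj at 0.375 to 0.468 cpm and C57BL/6J at 0.336 to 0.412 cpm, and its libraries there lay above those of all other strains. In PWK/PhJ, highest for H2-Q6, H2-Q7 stood at only 0.110 to 0.132 cpm and lay below C57BL/6J. In the fit with no filter, PWK/PhJ differed from C57BL/6J for H2-Q6 (q = 2.26e-04) and for H2-Q7 (q = 2.62e-05), higher in the former and lower in the latter. H2-T23 encodes Qa-1, which shows a peptide from other class I molecules to an inhibitory receptor of natural killer cells. Its level was highest in C57BL/6J at 0.658 to 0.801 cpm, with WSB/EiJ at 0.522 to 0.760 cpm overlapping it. By mean it was lowest in NOD/ShiLtJ at 0.297 to 0.412 cpm, which 129S1/Svlmj overlapped at 0.230 to 0.529 cpm, with the lowest library of all. In the same fit, 15 of 28 pairs of strains were called for H2-Q6, 14 for H2-Q7 and 5 for H2-T23, beside 19.8% of such comparisons over all features.

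B2m, the light chain shared by all class I molecules, lies outside the H2 complex. It was highest in C57BL/6J, and not in WSB/EiJ where H2-K1, H2-D1 and H2-Q4 were highest. B2m stood at 5.13, 3.79 and 5.76 cpm in C57BL/6J (mean 4.89 ± 1.01) and at 3.38, 3.77 and 4.05 cpm in A/J (mean 3.73 ± 0.336). Lower values were 2.60, 3.41 and 3.06 cpm in 129S1/Svlmj (mean 3.02 ± 0.405), 3.26, 3.10 and 2.59 cpm in NOD/ShiLtJ (mean 2.98 ± 0.346) and 3.63, 2.63 and 2.60 cpm in NZO/HlLtJ (mean 2.95 ± 0.585). The lowest were 2.71, 3.24 and 2.75 cpm in PWK/PhJ (mean 2.90 ± 0.296), 2.24, 2.80 and 2.52 cpm in WSB/EiJ (mean 2.52 ± 0.278) and 2.37, 2.08 and 2.83 cpm in CAST/EiJ (mean 2.43 ± 0.380). C57BL/6J and A/J overlapped, through C57BL/6J replicate 2, and the values of the other 6 strains overlapped each other and lay below all libraries of C57BL/6J. The means of C57BL/6J and CAST/EiJ lay 2.01-fold apart (F-test q = 5.57e-06). C57BL/6J was higher than 6 strains, and these calls were kept in each of the 24 fits without 1 library. Its difference from A/J was not called (-0.30 for A/J minus C57BL/6J, q = 0.0242) and was called without C57BL/6J replicate 2 (q = 0.00230) and without the 3 lens-rich libraries (q = 0.00231). WSB/EiJ, highest in the summed heavy chains, was next to lowest in B2m. Across the 24 libraries B2m had r = 0.18 with H2-K1 and 0.14 with H2-D1, and -0.064 and -0.42 after strain means were taken out.

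Tapbp encodes tapasin, which bridges class I molecules to the TAP transporter and helps them to take up peptide. It was highest in A/J and CAST/EiJ, the latter being the strain with the lowest H2-D1. The gene stood at 13.8, 14.7 and 14.7 cpm in A/J (mean 14.4 ± 0.531) and at 13.8, 14.6 and 11.9 cpm in CAST/EiJ (mean 13.4 ± 1.36). In the middle were 9.84, 11.96 and 11.01 cpm in C57BL/6J (mean 10.9 ± 1.06), 10.6, 10.4 and 11.8 cpm in NZO/HlLtJ (mean 10.9 ± 0.737) and 9.16, 9.55 and 10.6 cpm in NOD/ShiLtJ (mean 9.77 ± 0.736). The lowest values were 8.91, 8.96 and 9.47 cpm in PWK/PhJ (mean 9.11 ± 0.308), 9.82, 7.16 and 9.36 cpm in WSB/EiJ (mean 8.78 ± 1.42) and 7.93, 9.36 and 8.57 cpm in 129S1/Svlmj (mean 8.62 ± 0.714). A/J overlapped only CAST/EiJ, and the strains from C57BL/6J downwards overlapped along the order. The highest and lowest means lay 1.67-fold apart (F-test q = 6.90e-08). A/J was higher than 6 strains and CAST/EiJ was higher than 4 strains (129S1/Svlmj, NOD/ShiLtJ, PWK/PhJ and WSB/EiJ), in the fit of all libraries and in each of the 24 fits without 1 library. Across the libraries Tapbp ran opposite to H2-D1 (r = -0.63, n = 24), yet within strains the sign turned (r = 0.53 after strain means were taken out).

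Tap1 and Tap2 encode the subunits of the TAP transporter and lie side by side in the H2 complex, at chr17:34187553-34197226 and chr17:34203527-34216322. Tap2 was highest in A/J, at 2.06, 1.85 and 1.60 cpm (mean 1.83 ± 0.230). It was lowest in PWK/PhJ, at 0.871, 0.802 and 1.02 cpm (mean 0.898 ± 0.113). The other strains had means from 1.11 cpm in CAST/EiJ to 1.46 cpm in C57BL/6J and overlapped each other. A/J and PWK/PhJ did not overlap and lay 2.04-fold apart. A/J was higher than 6 strains, C57BL/6J being the exception (q = 0.0293), but its differences from 129S1/Svlmj, NOD/ShiLtJ and WSB/EiJ were called in only 22, 21 and 18 of the 24 fits without 1 library, and without A/J replicate 1 the q-values were 0.0177, 0.0207 and 0.0410. PWK/PhJ was lower than 5 strains, of which A/J and C57BL/6J were called in each of the 24 fits without 1 library, and 129S1/Svlmj, NOD/ShiLtJ and WSB/EiJ were not (without PWK/PhJ replicate 2, q = 0.0366, 0.0318 and 0.0160). Tap1 lay just under the filter, at a mean of 0.493 cpm over the 24 libraries. Its libraries ran from 0.539 to 0.719 cpm in C57BL/6J and 0.535 to 0.719 cpm in CAST/EiJ, the highest strains, to 0.260 to 0.392 cpm in PWK/PhJ, the lowest. PWK/PhJ was therefore lowest for both transporter genes, while CAST/EiJ was next to highest for Tap1 and next to lowest for Tap2. In the fit with no filter, 7 of 28 pairs of strains were called for Tap1, beside 19.8% of such comparisons over all features. Among these, PWK/PhJ was lower than C57BL/6J (q = 2.04e-04), CAST/EiJ (q = 3.54e-04) and A/J (q = 0.00103).

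**Figure D2:**
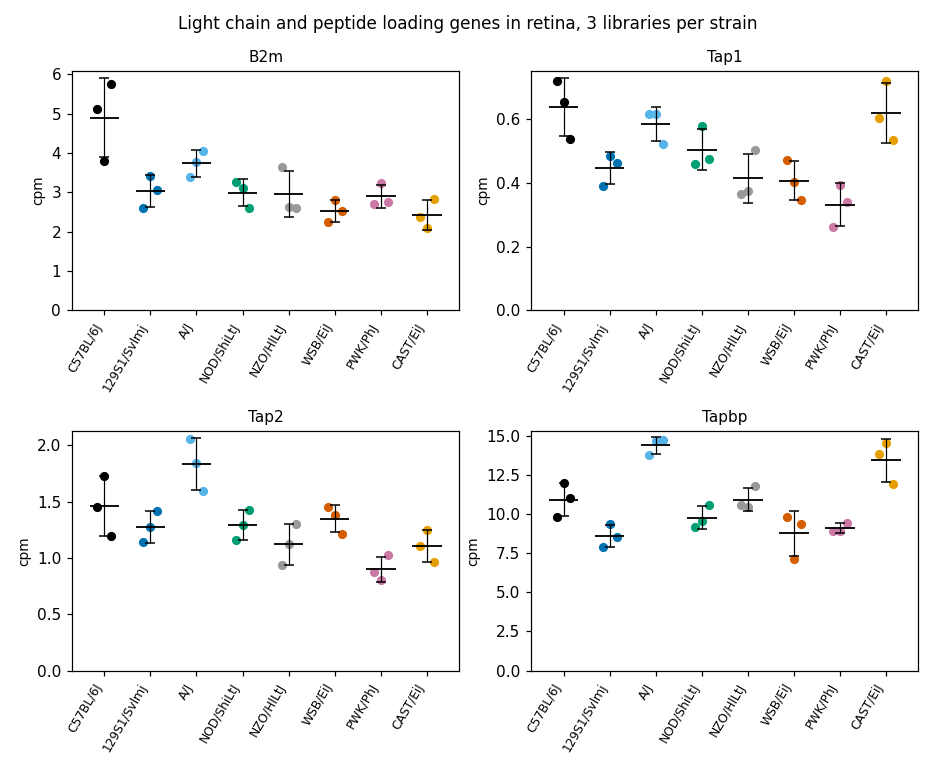
Levels of the light chain gene B2m and of 3 peptide loading genes (vertical axis, cpm) by strain (horizontal axis); each point is 1 library, the line is the mean and the bars are the SD of 3 libraries. B2m is highest in C57BL/6J, and Tap2 and Tapbp are highest in A/J.

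C57BL/6J, the strain of the reference genome, was then compared with each of the 7 other strains, because its own reads match that genome best. The 7 comparisons share the 3 C57BL/6J libraries and are given side by side. Of 42 comparisons of the 6 tested members, 24 were called, 4 with the other strain higher and 20 with it lower, where 11.9% of such comparisons over all genes were higher and 13.7% lower. The strain nearest in haplotype, 129S1/Svlmj, was lower for 2 members (9.12% of all genes were lower) and higher for 0 (8.73% higher). These were B2m, with a log2 difference of -0.54 (SE 0.12, q = 4.92e-04), and Tapbp, with a log2 difference of -0.31 (SE 0.092, q = 0.00475). The heavy chain genes of 129S1/Svlmj were not called, with differences of -0.18 for H2-K1, 0.031 for H2-D1 and -0.19 for H2-Q4. H2-Q4 was called without 129S1/Svlmj replicate 3 (q = 0.00648) or C57BL/6J replicate 1 (q = 0.00225), and after quantile normalization (q = 0.00638). Tapbp was not called without 129S1/Svlmj replicate 1 (q = 0.0237) or replicate 3 (q = 0.0123), without C57BL/6J replicate 2 (q = 0.0256) or replicate 3 (q = 0.0133), by the Benjamini-Hochberg adjusted p (0.0108), or without the 3 libraries richest in lens transcripts (q = 0.0156), an alternative chosen after seeing the data.

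Other classical strains were lower than C57BL/6J mainly for heavy chains. In A/J, 2 members were lower (10.2% of genes) and 1 was higher (10.6%). H2-D1 showed a log2 difference of -0.67 (SE 0.096, q = 2.93e-06) and H2-K1 a log2 difference of -0.28 (SE 0.078, q = 0.00316), and Tapbp was higher by 0.37 on the log2 scale (SE 0.092, q = 0.00124). H2-K1 was not called without A/J replicate 2 (q = 0.0111), C57BL/6J replicate 2 (q = 0.0179) or without the 3 lens-rich libraries (q = 0.0186). Tap2, not called here, was called without C57BL/6J replicate 2 (q = 0.00773). NOD/ShiLtJ was lower for 3 members (8.32% of genes) and higher for 0 (10.2%). H2-K1 differed by -0.52 (SE 0.078, q = 6.35e-06), B2m by -0.55 (q = 3.92e-04) and H2-Q4 by -0.24 (q = 0.00303), while H2-D1 differed by -0.044 and was not called. The H2-Q4 call was lost without C57BL/6J replicate 2 (q = 0.0149) or replicate 3 (q = 0.0173), or without NOD/ShiLtJ replicate 3 (q = 0.0132), or without the 3 lens-rich libraries (q = 0.0250). NZO/HlLtJ was lower for 4 members (10.05% of genes) and higher for 0 (8.22%). Its H2-K1 level differed by -1.41 (SE 0.078, q = 5.22e-13), with smaller differences for B2m (-0.57), H2-D1 (-0.56) and H2-Q4 (-0.41). Tap2 in NZO/HlLtJ was not called (q = 0.0268), and was called without C57BL/6J replicate 3 (q = 0.00736).

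Among the wild-derived strains, the tested heavy chains were higher than in C57BL/6J in WSB/EiJ, and lower or not called in PWK/PhJ and CAST/EiJ. B2m was lower in all 3 strains. WSB/EiJ was higher for 3 members (10.2% of genes), all of them heavy chains, and lower for 2 (17.0%). Its log2 differences were 0.68 for H2-D1 (SE 0.096, q = 2.19e-06), 0.64 for H2-K1 (q = 3.50e-07) and 0.61 for H2-Q4 (q = 4.10e-08). B2m differed by -0.73 (q = 1.84e-05) and Tapbp by -0.29 (q = 0.00660), so these heavy chains were higher where the light chain was lower. H2-Q6, H2-Q7 and H2-T23, below the filter, had lower means in WSB/EiJ, at 0.136, 0.208 and 0.612 cpm against 0.222, 0.367 and 0.734 cpm in C57BL/6J. The Tapbp call was lost without WSB/EiJ replicate 2 (a log2 difference of -0.17, q = 0.0575), without C57BL/6J replicate 2 (q = 0.0333) or replicate 3 (q = 0.0173), by the Benjamini-Hochberg adjusted p (0.0150), with no filter (q = 0.0125) and without the 3 lens-rich libraries (q = 0.0331). PWK/PhJ was lower for 3 members (19.1% of genes) and higher for 0 (19.2%). H2-D1 differed by -0.54 (q = 4.07e-05), B2m by -0.58 (q = 2.34e-04) and Tap2 by -0.37 (q = 7.47e-04), and Tapbp, at -0.24, was not called (q = 0.0219). Tapbp in PWK/PhJ was called without C57BL/6J replicate 1 (q = 0.00934), without WSB/EiJ replicate 2 (q = 0.00818), after median-ratio scaling (q = 0.00796) and after quantile normalization (q = 0.00508). CAST/EiJ was lower for 4 members (22.3% of genes) and higher for 0 (16.0%). H2-D1 differed by -1.75 (SE 0.096, q = 3.76e-13), H2-K1 by -1.13, B2m by -0.77 and H2-Q4 by -0.28, and H2-Q4 was not called after quantile normalization (q = 0.0111). Tapbp in CAST/EiJ was higher by 0.27, just outside the limit (q = 0.0101) and inside it in 6 of the 24 fits without 1 library. It was also called after median-ratio scaling (q = 0.00209), after quantile normalization (q = 0.00157), with a mean of at least 5 cpm (q = 0.00993) and without the 3 lens-rich libraries (q = 0.00523). Tap2 in CAST/EiJ was not called (q = 0.0231), and was called without C57BL/6J replicate 3 (q = 0.00632).

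**Figure D3:**
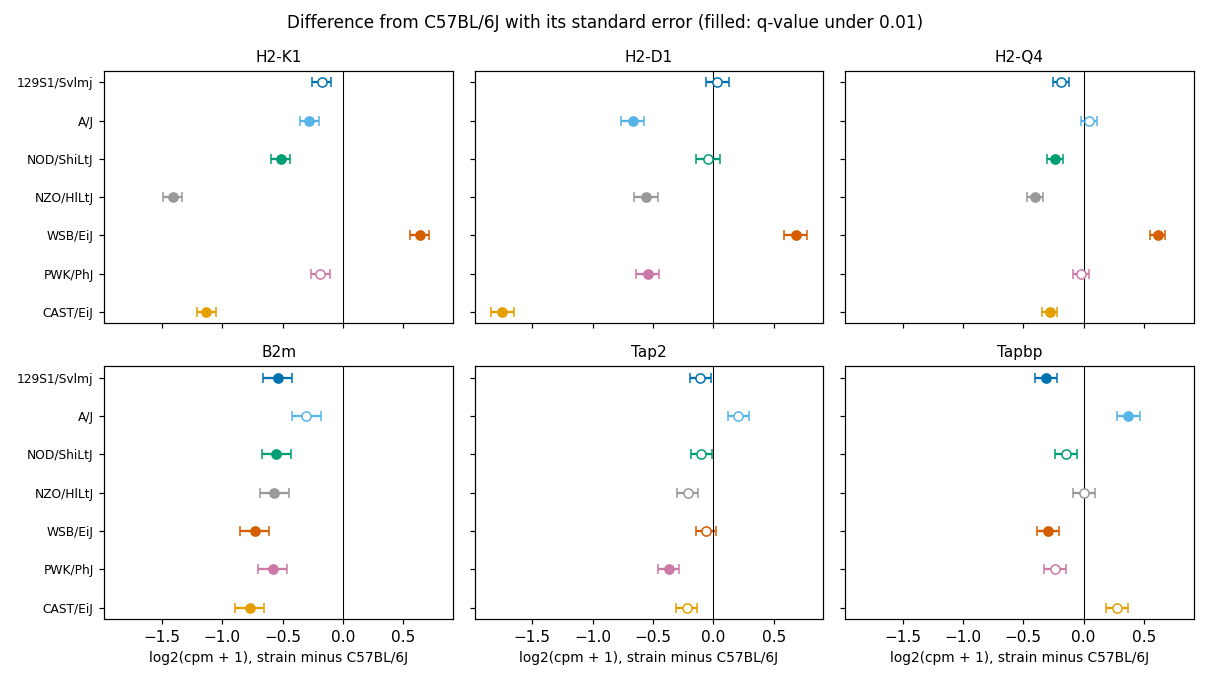
Difference of each strain from C57BL/6J (horizontal axis, log2 of cpm + 1) for the 6 tested genes, with its standard error; filled points have a q-value under 0.01. WSB/EiJ lies to the right for H2-K1, H2-D1 and H2-Q4 and to the left for B2m and Tapbp, and all 7 strains lie to the left for B2m.

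How far reads could be exchanged between genes was measured on the reference transcripts, as the share of 100-base stretches of a gene that also occur in a transcript of another gene. H2-K1, B2m, Tap1 and Tap2 shared 0% of their stretches, and Tapbp shared 0.0972%. H2-Q4 shared 2.66%, H2-D1 4.09% and H2-T23 7.28%. The share was largest for H2-Q6 at 10.8% and H2-Q7 at 17.2%, and these genes shared 8.36% and 9.34% of their stretches with each other. H2-Q7 shared a further 7.87% with H2-Q5. In the reference sequence, H2-K1 could therefore be told from its relatives by any 100-base stretch, whereas H2-Q6 and H2-Q7 could exchange reads. These shares hold for C57BL/6J alone, and the divergence of other strains from it was not tested.

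Other class I genes of the table had strain orders of their own. H2-K2, a neighbour of H2-K1, stood at 4.03 ± 0.288 cpm in C57BL/6J and 3.77 ± 0.232 cpm in 129S1/Svlmj, against at most 0.262 ± 0.0375 cpm in any other strain. In NZO/HlLtJ its values were 0.0147 cpm in 1 library and the listed minimum of 0.0001 cpm in the others. C57BL/6J and 129S1/Svlmj did not overlap any other strain for H2-K2, whereas for H2-K1 they lay within the range of the others. H2-T22 was highest in C57BL/6J at 1.35 ± 0.162 cpm and lowest in PWK/PhJ at 0.0284 ± 0.0163 cpm. H2-Q1, which shares 3.74% of the stretches of H2-D1, was listed at 0.0001 cpm in all 3 libraries of C57BL/6J and reached 0.414 ± 0.117 cpm in WSB/EiJ. H2-M5 was highest in PWK/PhJ at 1.60 ± 0.0475 cpm and WSB/EiJ at 1.44 ± 0.285 cpm, against 0.491 ± 0.103 cpm in C57BL/6J. H2-K2 and H2-M5 follow the rule for named genes of a list, and H2-T22 and H2-Q1 were chosen after their values were seen. Of the 16 listed class I-like genes in the table, 6 passed the filter and 6 were called, beside 91.7% of all genes. Among them was Hfe, an iron regulator of class I fold, at 3.93 cpm in 129S1/Svlmj against 1.18 cpm in CAST/EiJ. Another was Mr1, which presents vitamin B metabolites, at 1.56 cpm in 129S1/Svlmj against 0.621 cpm in CAST/EiJ.

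Other genes of antigen processing had smaller ranges between strains than the tested members by their median. Of 20 listed genes, 18 were tested and 18 called, with a median range between strains of 0.26 on the log2 scale, below the median over all genes of 0.43. The chaperones calnexin (Canx) and calreticulin (Calr), which hold new heavy chains, stood at 153 cpm in 129S1/Svlmj against 136 cpm in WSB/EiJ, and at 106 cpm in WSB/EiJ against 78.0 cpm in CAST/EiJ. Erap1, which trims peptides to the length that class I molecules bind, differed most in the list, at 17.7 cpm in CAST/EiJ against 4.93 cpm in NZO/HlLtJ. CAST/EiJ was thus highest for this trimming enzyme while it was lowest for H2-D1. Ide, an insulin-degrading protease, and Lgmn, a lysosomal protease, also had ranges above that of most genes. Ide stood at 66.0 cpm in C57BL/6J against 32.4 cpm in WSB/EiJ, and Lgmn at 47.8 cpm in NOD/ShiLtJ against 26.5 cpm in CAST/EiJ. The immunoproteasome genes Psmb8 and Psmb9 were below the filter. Compared with C57BL/6J, 6 of the 18 were lower in WSB/EiJ (17.0% of all genes), 6 in CAST/EiJ (22.3%), 4 in PWK/PhJ (19.1%), 4 in 129S1/Svlmj (9.12%), 3 in NZO/HlLtJ (10.05%), 2 in NOD/ShiLtJ (8.32%) and 1 in A/J (10.2%). Higher were 2 in WSB/EiJ (10.2%), 1 each in A/J (10.6%), NOD/ShiLtJ (10.2%), PWK/PhJ (19.2%) and CAST/EiJ (16.0%), and 0 in 129S1/Svlmj (8.73%) and NZO/HlLtJ (8.22%). Lnpep, another peptide-trimming enzyme, stood at 96.0 cpm in CAST/EiJ against 79.0 cpm in WSB/EiJ.

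Interferon-stimulated genes, a group to which class I genes belong, were highest in C57BL/6J, and their part in the class I levels was not tested. Summed over 35 genes, they came to 51.6 ± 1.36 cpm in C57BL/6J, 32.9 ± 0.430 cpm in WSB/EiJ and 28.1 ± 0.529 cpm in CAST/EiJ, and the C57BL/6J libraries lay above all others. The other strains had means of 39.5 cpm (129S1/Svlmj), 38.6 (A/J), 38.0 (NOD/ShiLtJ), 35.5 (NZO/HlLtJ) and 31.4 cpm (PWK/PhJ). B2m shared with this sum its highest and its lowest strain, H2-D1 only the lowest, and H2-K1 neither. Of 20 genes of the list tested, 19 were called by the F-test, and Parp9 was not. Against C57BL/6J, 16 of 20 were lower in WSB/EiJ (17.0% of all genes), 14 in CAST/EiJ (22.3%), 13 in PWK/PhJ (19.1%), 12 in NZO/HlLtJ (10.05%), 10 in NOD/ShiLtJ (8.32%), 9 in A/J (10.2%) and 9 in 129S1/Svlmj (9.12%), while at most 1 was higher in any strain. Gbp7, an interferon-induced GTPase, stood at 2.91 cpm in C57BL/6J against 0.400 cpm in PWK/PhJ, Oasl2 at 2.46 cpm in C57BL/6J against 0.175 cpm in CAST/EiJ, Ifit2 at 5.42 cpm in 129S1/Svlmj against 0.711 cpm in CAST/EiJ and the ubiquitin ligase Trim25 at 7.04 cpm in C57BL/6J against 3.16 cpm in PWK/PhJ. Ly6e was highest in another strain, at 5.22 cpm in CAST/EiJ against 3.08 cpm in NOD/ShiLtJ. Interferon receptors and their kinases (7 of 7 called) differed less, with a median range of 0.34; Jak1 stood at 53.1 cpm in WSB/EiJ against 40.5 cpm in A/J, and Ifngr2 at 5.62 cpm in A/J against 2.88 cpm in PWK/PhJ. Ifnar1 stood at 23.01 cpm in A/J against 18.3 cpm in PWK/PhJ, Jak2 at 20.9 cpm in 129S1/Svlmj against 16.9 cpm in WSB/EiJ and Tyk2 at 7.81 cpm in PWK/PhJ against 4.90 cpm in CAST/EiJ.

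Factors that act on class I promoters had a median range near that of all genes. Of 14 tested, 13 were called (Irf2 was not), with a median range of 0.38. Stat2 and the class I and II enhanceosome subunit Rfxank were highest in A/J, at 13.0 cpm against 7.59 cpm in CAST/EiJ, and at 5.82 cpm in A/J against 3.29 cpm in CAST/EiJ. Nfyc, a subunit of NF-Y, stood at 12.7 cpm in A/J against 9.12 cpm in PWK/PhJ, Rfx5 at 15.01 cpm in PWK/PhJ against 11.2 cpm in NZO/HlLtJ and Creb1 at 72.7 cpm in WSB/EiJ against 56.4 cpm in PWK/PhJ. Compared with C57BL/6J, 4 of the 14 were lower in 129S1/Svlmj (9.12% of all genes), 4 in CAST/EiJ (22.3%), 3 in NZO/HlLtJ (10.05%), 3 in WSB/EiJ (17.0%), 2 in PWK/PhJ (19.1%), 1 in A/J (10.2%) and 0 in NOD/ShiLtJ (8.32%). Higher were 2 in A/J (10.6%), 1 each in NOD/ShiLtJ (10.2%), WSB/EiJ (10.2%) and PWK/PhJ (19.2%), and 0 in the other strains. Genes of the MHC class II pathway, which presents peptides from outside the cell, were mostly near the floor. Only H2-DMa and Ifi30 of 12 passed the filter, and 1 of 2 was called. H2-DMa stood at 1.91 cpm in WSB/EiJ against 1.12 cpm in 129S1/Svlmj, while Ifi30 was not called (q = 0.0122) and Cd74 stood at 0.503 cpm in 129S1/Svlmj against 0.0174 cpm in CAST/EiJ. Summed over 12 genes, class II means ran from 2.40 cpm in NOD/ShiLtJ to 3.41 cpm in 129S1/Svlmj, 1.42-fold apart, against 5.74-fold for the summed class I members. H2-DMa and Ifi30, at means of 1.47 and 0.797 cpm over all libraries, made up most of the class II sum. It therefore says little about the class II chains. H2-Aa stood at 0.317 cpm in 129S1/Svlmj against 0.00902 cpm in CAST/EiJ, and H2-Ab1 at 0.233 cpm in C57BL/6J against 0.0199 cpm in NZO/HlLtJ.

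Markers of cells that are rich in class I molecules were set beside these levels. Microglia, the immune cells of the retina, had 12 markers present, 7 tested and 7 called, beside 91.7% of all genes. Csf1r, a growth factor receptor of these cells, stood at 3.18, 3.79 and 3.59 cpm in A/J, at 2.62, 2.43 and 3.03 cpm in C57BL/6J, at 2.93, 2.20 and 2.66 cpm in WSB/EiJ and at 1.92, 1.80 and 2.02 cpm in CAST/EiJ. It was highest by mean in A/J and lowest in CAST/EiJ, and WSB/EiJ and C57BL/6J overlapped, while H2-K1, H2-D1 and H2-Q4 did not overlap between them. A/J, highest in Csf1r, was highest in Tap2 and Tapbp but next to lowest in H2-D1, and CAST/EiJ, lowest in Csf1r, was lowest in H2-D1 and B2m but next to highest in Tapbp and Tap1. The part of microglia in these differences was not tested. P2ry12 stood at 2.06 cpm in A/J against 0.946 cpm in WSB/EiJ, Cx3cr1 at 1.72 cpm in A/J against 0.714 cpm in PWK/PhJ and C1qc at 1.01 cpm in C57BL/6J against 0.168 cpm in CAST/EiJ. Endothelium (8 of 8 tested markers called, Kdr the most abundant) summed to 137, 137 and 128 cpm in CAST/EiJ and 94.8, 86.9 and 86.0 cpm in WSB/EiJ, the highest and the lowest strain. Kdr made up most of the sum, at 97.5 cpm in CAST/EiJ against 53.5 cpm in WSB/EiJ. Of the 8 markers, 1 was higher (16.0% of all genes) and 5 were lower (22.3%) than C57BL/6J in CAST/EiJ, and 0 were higher (10.2%) and 4 lower (17.0%) in WSB/EiJ. Lymphocyte markers were near the floor: 5 of 12 (Cd3e, Cd3d, Cd3g, Cd8b1 and Nkg7) were not in the table, 0 of the other 7 passed the filter, Ptprc was the most abundant at a mean of 0.401 cpm, and the sum reached at most 1.14 cpm in any library.

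Retinal pigment epithelium, which lies against the retina and can adhere to it, gave 6 markers with Ttr the most abundant, and 5 of 5 tested were called. Their sum was highest in WSB/EiJ, at 51.0, 31.6 and 34.4 cpm, and it was low in CAST/EiJ, at 10.2, 8.29 and 9.22 cpm, in PWK/PhJ at a mean of 9.16 cpm and in NZO/HlLtJ at 11.4 cpm. A/J and 129S1/Svlmj overlapped WSB/EiJ in these markers. Ttr made up 23.6 of the mean of 39.0 cpm in WSB/EiJ, and the other 5 markers summed to a mean of 15.4 cpm there and 16.4 cpm in A/J, the highest without Ttr. Of single markers, Ttr, Lrat (4.28 cpm) and Rdh5 (3.57 cpm) were highest by mean in WSB/EiJ. Rpe65 was highest in A/J, at 1.66, 4.61 and 7.74 cpm (mean 4.67 cpm). Pmel stood at 12.1, 3.99 and 2.73 cpm in NOD/ShiLtJ, whose highest mean of 6.28 cpm rests on replicate 1. Best1 was at the floor of the table in all WSB/EiJ and A/J libraries. Compared with C57BL/6J, 2 of 5 tested markers were higher in WSB/EiJ (10.2% of all genes) and 0 lower (17.0%). In NZO/HlLtJ, PWK/PhJ and CAST/EiJ, 1 each was lower (10.05%, 19.1% and 22.3%). The sum of the class I members was highest in WSB/EiJ as well and lowest in CAST/EiJ and NZO/HlLtJ. Within A/J the epithelial markers were 14.9, 29.2 and 39.0 cpm, while the class I sum was 8.997, 8.33 and 8.64 cpm. C57BL/6J had an epithelial mean of 19.1 cpm, 129S1/Svlmj 30.7, NOD/ShiLtJ 22.6 and A/J 27.7 cpm. Within strains, the library with the lowest epithelial sum held the highest class I sum in 6 of 8 strains, among them WSB/EiJ, with a class I sum of 19.8, 22.3 and 21.3 cpm in replicates 1 to 3. In the other 2, 129S1/Svlmj and PWK/PhJ, the highest values of both fell in the same library. With only 3 libraries per strain such counts say little, and they are given as a description with no test. The part of this epithelium in the WSB/EiJ levels was not tested. Müller glia markers (8 of 8 called, Glul the most abundant) summed to 1078 cpm in WSB/EiJ and 1287 cpm in C57BL/6J. Rod markers (7 of 7 called) included Gnat1 at 2546 cpm in C57BL/6J against 1747 cpm in A/J and Sag at 2210 cpm in NOD/ShiLtJ against 917 cpm in C57BL/6J. Blood cell markers (4 of 4 tested called, Hbb-bs the most abundant) summed to 14.7 cpm in WSB/EiJ, 12.3 in CAST/EiJ and 28.4 cpm in NOD/ShiLtJ. Lens markers (0 of 6 called, Cryaa the most abundant) varied within strains. Without the 3 libraries richest in them, an alternative chosen after seeing the data, 6 of 6 tested members were still called, beside 95.1% of all genes.

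Whether the H2 complex as a whole differed was asked of the genes from Tapbp to H2-M3 on chromosome 17, at 33915899 to 37274485. Of 184 genes there, 93 were tested, 88 of them not among the members, and 76 of the 88 were called by the F-test (86.4%, beside 91.7% of all genes). The median range of these genes was 0.42, near the 0.43 of all genes, so the wide range of the heavy chains was not typical of the region. Compared with C57BL/6J, 7.95% of the 88 genes were called in 129S1/Svlmj, which shares its haplotype type, beside 17.8% of all genes. In CAST/EiJ 18.2% were called beside 38.3% of all genes. In the other strains the shares were 25.0% in A/J (20.7% of all genes), 25.0% in NOD/ShiLtJ (18.5%), 19.3% in NZO/HlLtJ (18.3%), 31.8% in WSB/EiJ (27.2%) and 37.5% in PWK/PhJ (38.4%). CAST/EiJ, with the largest difference for H2-D1, thus had fewer called neighbours than other wild-derived strains. Among a list of 58 tested neighbours that are not class I genes, 49 were called, with Rps18 at 6.58 cpm in 129S1/Svlmj against 2.17 cpm in WSB/EiJ, Nrm at 9.48 cpm in A/J against 4.30 cpm in PWK/PhJ, Ier3 at 17.3 cpm in NOD/ShiLtJ against 5.67 cpm in WSB/EiJ and Tubb5, the most abundant, at 108 cpm in NOD/ShiLtJ against 71.0 cpm in WSB/EiJ. Brd2 stood at 65.0 cpm in A/J against 48.1 cpm in 129S1/Svlmj, and Gabbr1 at 60.2 cpm in PWK/PhJ against 50.05 cpm in CAST/EiJ.

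For each tested member, the gene outside the list with the most similar levels over the 24 libraries was found by Pearson's r on log2(cpm + 1), as a description. For H2-D1 it was Ttc25 on chromosome 11 (r = 0.94), at 3.98 cpm in WSB/EiJ and 1.54 cpm in CAST/EiJ. H2-K1 was most like Rab11b (r = 0.88), which lies close by on chromosome 17 at chr17:33742484-33760531, outside the interval above. H2-Q4 was most like Serpine3 on chromosome 14 (r = 0.87), which was also highest in WSB/EiJ and lowest in NZO/HlLtJ. For B2m the gene was Gpx3 on chromosome 11 (r = 0.87), for Tap2 Foxo1 on chromosome 3 (r = 0.85) and for Tapbp Dipk1c (r = 0.88). Of the 50 genes most like each member, 0 lay in the H2 interval for H2-K1, H2-D1, H2-Q4, B2m and Tapbp, and 1 for Tap2. The interval holds only 0.567% of all genes tested, so these counts say little. On chromosome 17 as a whole lay 6 of the 50 for Tapbp, 3 for H2-K1, 2 for H2-Q4, 1 each for B2m and Tap2 and 0 for H2-D1.

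The promoters of the members were read to show what the heavy chain genes share in sequence, although their levels differ. RefSeq promoter windows of GRCm38.p6, from 250 bases before to 50 bases after the gene start in RefSeq, matched 9 of the 10 members, and Tap2 had none. For Tapbp, H2-D1 and H2-T23 that start lies well inside the gene as the table places it, so their windows are not at the table's start. The motif AANNGAAA, bound by interferon regulatory factors, was searched on both strands and occurred in 7 of 9 members, in B2m and all 6 heavy chain genes against 23.9% of 32,851 promoters. GGGATTCCC, bound by NF-kB, occurred in 4 of 9 (H2-K1, H2-D1, H2-Q6 and H2-Q7) against 0.353% of all promoters. ATTGG, bound by NF-Y, occurred in 9 of 9 against 37.4%. A stretch of 50 bases around the interferon motif is shown for 5 heavy chain genes, read 5′ to 3′ on the strand of the gene, because it shows both motifs side by side. Capitals mark GGGATTCCC and the match to AANNGAAA, which lies on the opposite strand and is shown here as its reverse complement.
H2-K1: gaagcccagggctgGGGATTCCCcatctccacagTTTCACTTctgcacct
H2-D1: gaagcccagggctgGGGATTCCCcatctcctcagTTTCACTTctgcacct
H2-Q4: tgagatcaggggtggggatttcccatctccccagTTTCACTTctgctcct
H2-Q6: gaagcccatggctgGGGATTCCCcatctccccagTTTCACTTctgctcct
H2-Q7: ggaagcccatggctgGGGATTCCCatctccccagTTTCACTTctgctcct
The stretches lie at chr17:34000422-34000471 on the minus strand and, on the plus strand, at chr17:35262910-35262959, chr17:35379430-35379479, chr17:35424664-35424713 and chr17:35439008-35439057. In all 5 the interferon motif reads the same, and H2-Q4 lacks the exact letters of the NF-kB motif. The sequence is that of C57BL/6J, and a match is a description of letters and not of binding. H2-Q6 and H2-Q7 hold the same motifs as H2-K1 and H2-D1 here, while their levels in C57BL/6J were 0.106 and 0.241 against 2.38 and 3.38 cpm per kilobase.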

How the data were processed

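The authors trimmed the reads of the 24 libraries, aligned them to mm10 by STAR and counted them per gene in Partek Flow, which splits reads that fit several genes. The deposited values are cpm, which the authors made from the total read count of each library, with 0.0001 added. Of low values, 89.7% to 91.8% were whole reads (within 0.05 read), and no count model was used. limma 3.58.1 in R 4.3.3 fitted strain to log2(cpm + 1) for 16,400 genes (mean 0.5 cpm or more), with eBayes and a trend, and the F-test and 28 pairs of strains were two-sided. Storey's q-value (lambda 0.5, limit 0.01) can be below the unadjusted p, because the share of unchanged genes was estimated as 0.0498 for the F-test and 0.442 for the pairs.

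Alternatives were a pseudocount of 0.1, other filters (none, or 5 cpm), quantile or median-ratio scaling, Benjamini-Hochberg adjusted p-values, a limit of 0.05, no trend, the 15 classical libraries, leaving out each library, and leaving out the 3 lens-rich libraries (chosen after seeing the data). Named genes are the members, the gene most like each, and from each list the 3 highest in mean and the 3 with the largest F. The members and lists were chosen with earlier results of these data known.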

Additional observations from a re-analysis of the deposited data

How the results depend on the processing

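Of the 6 tested members, 6 were called for strain differences under each alternative that kept them, and 76 of the 95 called pairs of strains were also called in each of the 24 fits without 1 library. With no filter, 10 members were called for strain differences and 40 of the comparisons with C57BL/6J, with 4 for 129S1/Svlmj, 5 for NOD/ShiLtJ and 7 each for NZO/HlLtJ, PWK/PhJ and CAST/EiJ, since 10 members were tested. With a mean of at least 5 cpm, 2 members were tested and called beside 8749 genes, with 37 pairs, and 9 comparisons with C57BL/6J, 1 each for 129S1/Svlmj, NZO/HlLtJ and PWK/PhJ, 2 each for WSB/EiJ and CAST/EiJ and 0 for NOD/ShiLtJ. Benjamini-Hochberg adjusted p-values left 1 for 129S1/Svlmj. The limit of 0.05 gave 4 for 129S1/Svlmj and 5 each for A/J and PWK/PhJ, and called every gene by the F-test. In the 15 classical libraries 7520 genes were called. Without the 3 lens-rich libraries 1 member was called for 129S1/Svlmj. Leaving out 1 library gave 6 to 7 members for strain differences, 14619 to 15346 genes, 88 to 97 pairs and 23 to 27 comparisons with C57BL/6J, with 1 to 3 for 129S1/Svlmj, 2 to 4 for A/J, 2 to 3 for NOD/ShiLtJ, 4 to 5 for NZO/HlLtJ, 4 to 6 for WSB/EiJ, 3 to 4 for PWK/PhJ and 4 to 5 for CAST/EiJ.

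Small differences that were not called changed sign, and the cause was not tested. H2-Q4 in PWK/PhJ turned to 0.024 after quantile normalization. Without the lens-rich libraries, H2-D1 in NOD/ShiLtJ turned to 0.12, H2-Q4 in PWK/PhJ to 0.0070 and Tap2 in WSB/EiJ to 0.016. Over the fits without 1 library, H2-D1 ran from -0.096 to 0.13 in 129S1/Svlmj and from -0.17 to 0.051 in NOD/ShiLtJ, H2-Q4 from -0.026 to 0.079 in A/J and from -0.092 to 0.028 in PWK/PhJ, Tap2 from -0.14 to 0.016 in WSB/EiJ, and Tapbp from -0.066 to 0.063 in NZO/HlLtJ. Of single differences from C57BL/6J, leaving out 1 library ended 12 calls and made 14 over all fits, and other alternatives ended 8 and made 17.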
